A study of Sus scrofa domesticus and Sus scrofa with 18 samples.

Results

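Long non-coding RNAs (lncRNAs) are transcripts that carry no evident protein-coding frame, and many are transcribed in a narrow range of cell types or stages, usually at lower levels than messenger RNAs. The fetal spleen is built from mesoderm under the control of factors such as TLX1, and for part of fetal life it holds blood-forming cells, above all of the red lineage. The adult spleen is dominated by B cells, T cells and macrophages, and it filters old red cells from the blood. A set of 76 lncRNAs with their highest level in the fetal spleen is described here, out of 15040 lncRNAs measured in pig spleen, or 0.505% of them. Each was chosen because its mean log2(FPKM+1) at the fetal stage exceeded each of the means of 4 later stages of the domestic pig by at least 1.5, with a mean over all libraries below 5. FPKM, fragments per kilobase of transcript scaled to the mapped reads, is a level corrected for transcript length, and an empty cell of the table was read as 0. TU78568 and TU39066, a pair of very abundant lncRNAs, were left out by the rule. The lncRNAs are known only by the study's identifiers (TU numbers), and their positions and sequences were not analysed here.

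RNA of whole frozen spleen was sequenced from 18 female pigs, 3 in each of 6 groups, with 1 library per animal. Rongchang pigs, a Chinese domestic breed, were sampled 55 days before birth (E55d), just after birth (B0d), after 30 days of weaning (W30d), at 180 days of age (A180d) and at 2 years of age (A2Y). The sixth group was 2-year-old Wild Boars (WB), so that A2Y and WB share an age but differ in breed and in where the animals lived. The E55d libraries are numbered 1, 5 and 6, and they are named here by those numbers. In such bulk samples, fewer cells of a type and less RNA per cell cannot be told apart. The number of reads behind a value is not known from FPKM, so no counting error is given, and the errors are standard deviations (SD) over 3 animals. A lncRNA listed at 0 may also be a failed estimate.

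The T cell, B cell and myeloid markers set the fetal stage apart, while the erythroid and proliferation markers did so only in part. TLX1, a factor needed for the spleen to form, was present in all 18 libraries, at a log2(FPKM+1) of 2.21 to 4.28. It was 1 of 3 measured genes of a spleen stroma list of 8. The means at E55d, B0d and A180d were 3.87, 4.19 and 2.72 for TLX1, 2.96, 2.90 and 1.91 for WT1, and 4.95, 4.53 and 2.23 for NR2F2. By limma, only NR2F2 was lower from E55d to B0d. All 3 were lower from B0d to A180d, where 20% of protein-coding genes were lower. TFRC and EPOR, the transferrin and erythropoietin receptors, were the 2 measured genes of an erythroid list of 8. They summed to an FPKM of 226 to 299 at E55d, 19.6 to 343 at W30d and 12.9 to 16.7 at A180d. TFRC dominated this sum, with a mean log2(FPKM+1) of 7.89 at E55d beside 4.30 for EPOR. The summed FPKM of 4 measured T cell genes of 5 (CD3D, CD2, CD8A and LCK) was 1.42 to 1.68 at E55d and 213 to 255 at A180d. From E55d to B0d, 3 of those 4 T cell genes and 2 of 3 measured B cell genes of 5 passed the test as higher, by limma with an adjusted p of at most 0.05, where 22.3% of 12913 protein-coding genes were higher and 12.6% lower. All 3 measured myeloid genes of 5 (CSF1R, LYZ and ITGAM) also passed as higher, and 2 of them with the libraries scaled by protein-coding genes. The summed FPKM of the myeloid genes was 6.5 to 8.34 at E55d and 21.6 to 49.0 at B0d. Both of MCM2 and TOP2A, of 5 measured genes of a proliferation list of 8, fell from E55d to B0d, and neither erythroid gene passed the test. The summed FPKM of the proliferation list was 171 to 220 at E55d but 94.1 to 299 at W30d. Neither this list nor the erythroid one separated E55d from W30d. No gene of the fetal growth, megakaryocyte and pancreas lists was paired with a symbol. Some libraries stood apart. B0d replicate 3 held ALB, the albumin of liver, at a log2(FPKM+1) of 9.05 where the other B0d libraries held 0.13 and 0.45, and W30d replicate 2 held an erythroid sum of 19.6 where the other W30d libraries held 225 and 343. WB replicate 3 also held ALB, at 5.54, where the other WB libraries held 0.20 and 0.29.

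The mean of the 76 lncRNAs at E55d ran from 1.62 to 6.0 in log2(FPKM+1), with a median of 2.23, where the median of all lncRNAs was 0.59. In linear units their E55d means ran from 2.53 to 90.2 FPKM, with a median of 3.79. The set is therefore mostly of modest level, with 47 lncRNAs below 5 FPKM and 12 at or above 10 FPKM. The margin of the E55d mean over the highest later domestic mean was 1.75 on the log2 scale at the median, and it was at least 2 for 17 lncRNAs and at least 3 for 3 of them. These values chose the set and are given as a description. The same rule applied to each other domestic stage found 6 lncRNAs for B0d, 2 for W30d, 3 for A180d and 2 for A2Y. Among 12913 protein-coding genes it found 82 at E55d, or 0.635%. The threshold fell within a continuous range of margins. The 5 lncRNAs just inside were TU78402 (1.54), TU69567 (1.52), TU60431 (1.52), TU80940 (1.52) and TU78919 (1.51), and the 5 just outside were TU78371 (1.496), TU81795 (1.49), TU22948 (1.49), TU76708 (1.49) and TU25869 (1.48).

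**Figure D1:**
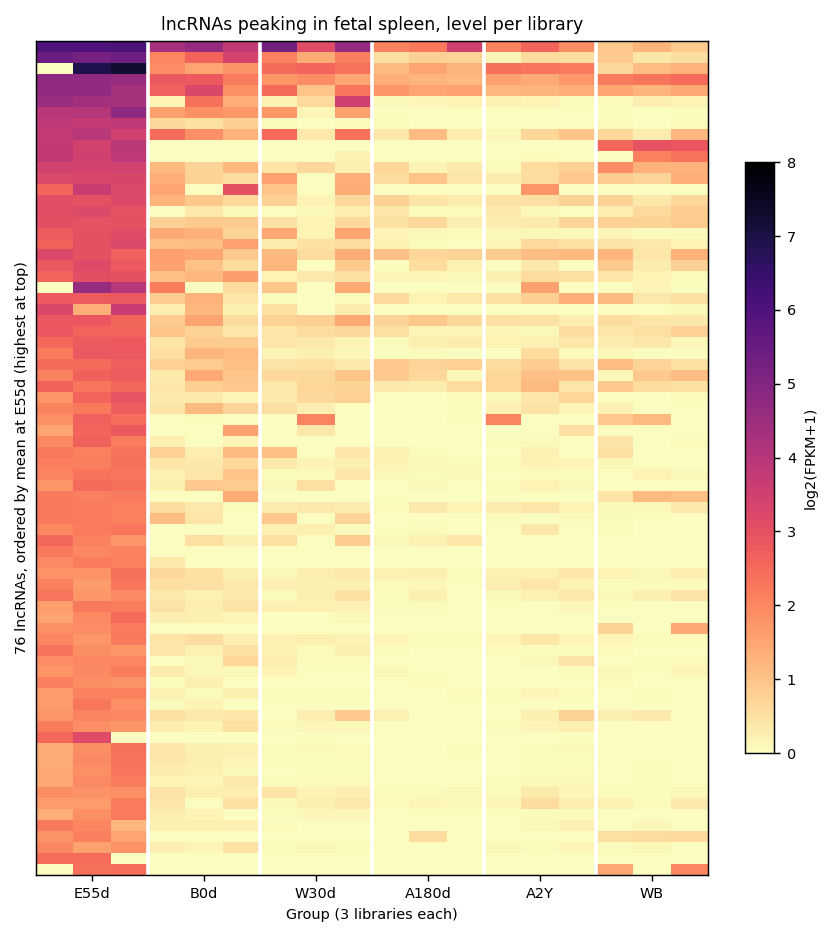
Level of each of the 76 lncRNAs (rows, ordered by mean at E55d) in each of the 18 libraries (columns, 3 per group), with colour giving log2(FPKM+1). Darker colour stands for a higher level. The E55d columns are darker than the later domestic columns in most rows, but only the top rows reach the dark part of the scale. Single E55d cells of 5 lncRNAs listed at 0 in a library are at its pale end. A small number of rows are darker again in WB.

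Within E55d the libraries were close to each other for most of the set. The SD over the 3 libraries had a median of 0.24, and the gap between the highest and the lowest library had a median of 0.45. In 5 lncRNAs a single E55d library was listed at 0, namely TU69813, TU82043 and TU83609 in library 1, and TU69922 and TU69925 in library 6. The widest gap was that of TU69813, which was at 0.00 in library 1 and at 6.92 and 7.24 in libraries 5 and 6. Its E55d mean of 4.72 ± 4.09 (SD, n = 3) thus rests on 2 animals, and its E55d libraries overlap with those of every other group.

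The set was also chosen anew with the E55d mean taken from 2 E55d libraries, and the library left out was then read. That library still entered the limit on the mean over all libraries. Without library 1, 93 lncRNAs were chosen, and 45 of them (48.4%) lay at least 1.5 above the highest later domestic mean in library 1, as did 0.519% of all lncRNAs. Without library 5, 68 were chosen and 53 (77.9%) passed in it, against 0.705% of all lncRNAs. Without library 6, 69 were chosen and 51 (73.9%) passed in it, against 0.731%. The median difference in the library left out was 1.42, 1.78 and 1.78 on the log2 scale, so library 1 showed the fetal excess at the smallest size. Of the 76, 69, 62 and 59 were chosen again without library 1, 5 and 6. The later domestic means, which the rule held down, were the same in the choice and in the reading. These shares are therefore a description and no test of the fetal excess.

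The most abundant lncRNA that was even across the fetal animals was TU9999, at 5.98, 5.99 and 6.03 in log2(FPKM+1) at E55d, a mean of 63.1 FPKM. It was at 4.29, 4.61 and 3.73 at B0d, at 5.28, 3.15 and 4.64 at W30d, at 2.04, 2.24 and 3.51 at A180d, at 2.06, 2.58 and 1.86 at A2Y, and at 0.93, 1.22 and 0.85 in WB. TU9999 was thus still well expressed at birth and after weaning, and the 3 WB libraries were the lowest of all 18. TU79903 was at 5.46, 5.23 and 5.40 at E55d, at 2.02, 2.61 and 3.40 at B0d, at 2.1, 1.38 and 2.13 at W30d, and between 0.14 and 0.90 in the 9 libraries of A180d, A2Y and WB. Its fetal libraries did not overlap with those of any other group.

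TU77042 was at 4.75, 4.73 and 4.58 at E55d, at 2.82, 2.79 and 2.21 at B0d, at 1.73, 1.91 and 1.5 at W30d, at 1.36, 1.25 and 1.19 at A180d, at 1.53, 1.42 and 1.74 at A2Y, and at 2.16, 2.31 and 2.49 in WB. TU83744 was at 4.69, 4.68 and 4.30 at E55d, at 2.67, 3.28 and 1.85 at B0d, at 2.49, 0.97 and 2.29 at W30d, and between 1.20 and 1.72 in the older groups. Both were detected in every library of the series, and with TU9999 and TU69813 they were the 4 members whose mean log2(FPKM+1) at A180d was at least 1. TU10808 was at 4.55, 4.37 and 4.30 at E55d but uneven after birth, at 0.17, 2.40 and 1.37 at B0d and at 0.20, 0.62 and 3.5 at W30d, and it was between 0.06 and 0.26 in A180d, A2Y and WB.

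TU67187 was at 3.91, 4.0 and 4.77 at E55d, at 1.54, 1.85 and 1.70 at B0d, and at 1.73, 0.13 and 1.57 at W30d, and it was listed at 0 in all 9 libraries of A180d, A2Y and WB. TU12798 was at 3.87, 3.73 and 3.81 at E55d, at 0.65, 0.48 and 0.80 at B0d, and at or below 0.07 in every later library, so that almost all of its level was gone by 30 days of weaning. TU76646 was at 3.74, 3.96 and 3.49 at E55d, at 2.46, 1.84 and 1.27 at B0d, at 2.48, 0.37 and 2.34 at W30d, and between 0.11 and 1.19 in the older groups. Among these 10 abundant members, W30d replicate 2, the library with a low sum of TFRC and EPOR, was the lowest of its group in 6. It was the highest in 2, TU69813 and TU77042.

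**Figure D2:**
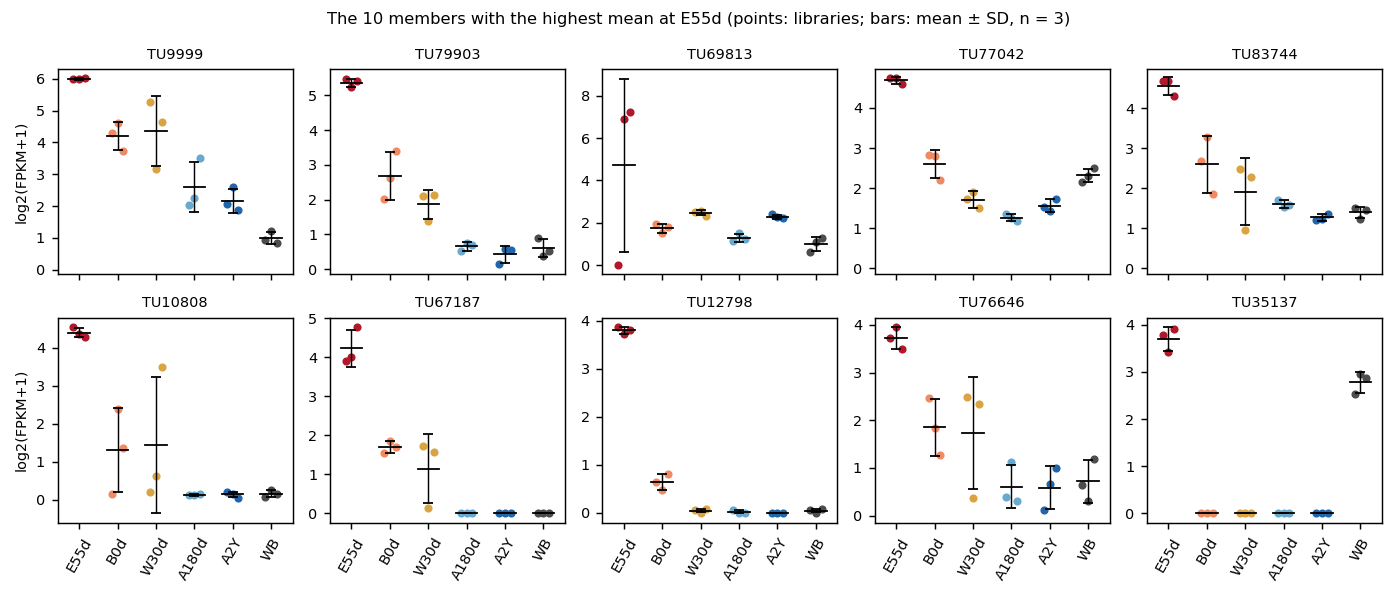
The 10 members with the highest mean at E55d, with log2(FPKM+1) on each vertical axis and the 6 groups on the horizontal axis. Points are libraries and black bars are the mean ± SD (n = 3). TU69813 has an E55d library at 0.00, TU35137 is at 0 in all postnatal domestic libraries and returns in WB, and W30d is split in TU9999, TU10808, TU67187 and TU76646.

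Some of the largest margins belonged to lncRNAs that were close to absent after birth. TU34155 was at 3.75, 3.47 and 3.85 at E55d and listed at 0 in 10 of the 12 postnatal domestic libraries, with 0.21 and 0.07 in the other two. TU35137 was at 3.77, 3.41 and 3.90 at E55d and listed at 0 in all 12. TU76622 was at 3.12, 3.22 and 2.96 at E55d and at most 0.43 in those 12 libraries. In 6 members all 12 libraries were listed at 0, namely TU35137, TU1518, TU50309, TU69922, TU69925 and TU82043. Of these, TU69922, TU69925 and TU82043 were also at 0 in a fetal library, and TU35137, TU50309 and TU82043 were present in WB. A larger number, 45 of 76, stayed below 1 FPKM in each of the 12. The rule favours both counts, and their shares over all lncRNAs were not worked out.

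Across the set, every E55d library lay above every postnatal domestic library in 68 of 76 lncRNAs, where 10% of all lncRNAs did so, and this count follows from the rule. The exceptions were the 5 lncRNAs with a fetal library at 0, together with TU27620, TU72445 and TU76711. TU27620 was at 2.58, 3.65 and 3.19 at E55d and at 1.5, 0.00 and 2.97 at B0d, so B0d replicate 3 lay within its fetal range.

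The level left after birth, as a percent of the E55d mean FPKM, had a median over the 76 of 9.96 in newborns (B0d), and of 4.72 for W30d, 0.766 for A180d and 2.84 for A2Y. The quartiles were 4.33 and 14.8 at B0d and 0 and 3.17 at A180d. The most that any member kept was 35.3% at B0d and 36.8% at W30d, then 14.9% at A180d and 25.3% at A2Y. Part of this follows from the rule, which bounds every later mean, but the order of the later stages does not. Of the 70 members with any postnatal level, 53 (75.7%) were highest at B0d and 10 at W30d, with 2 at A180d and 5 at A2Y (7.14%). Among all lncRNAs, 50.2% were highest at B0d and 30.5% at A2Y. A180d was the lowest stage in 45 of the 76 and A2Y in 13, with 12 ties. That share was not taken over all lncRNAs, whose median was also lowest at A180d. From B0d through W30d to A180d the mean fell or stayed level in 59 of the 76 and in 57.1% of all lncRNAs. The median of the group means in log2(FPKM+1) was 0.46 for B0d, 0.24 for W30d, 0.04 for A180d and 0.14 for A2Y, beside 0.61, 0.44, 0.19 and 0.49 for all lncRNAs.

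Detection followed the same course. A member was detected in 73, 76 and 74 of 76 cases in the E55d libraries, in 62, 62 and 63 at B0d, in 61, 53 and 60 at W30d, in 47, 47 and 41 at A180d, in 50, 58 and 54 at A2Y, and in 56, 49 and 52 in WB. Over all lncRNAs, the share detected was 80.7 to 82.9% at E55d, 81.7 to 84.1% at B0d and 81.4 to 83.3% at W30d. It was 72.7 to 76.3% at A180d, 85.8 to 88.8% at A2Y and 74.6 to 75.2% in WB. The rule favours detection of the members at E55d, and their detection at B0d lay near that of all lncRNAs. The A2Y libraries detected the most lncRNAs overall but fewer members than the B0d libraries. They were also the most deeply sequenced libraries by the study's own listing, and the part of depth in detection was not tested. The number of members with no detection in any library of a group was 0 for E55d, 8 for B0d, 11 for W30d, 20 for A180d, 12 for A2Y and 11 for WB. Over all lncRNAs these shares were 9.71, 7.99, 7.55, 13.2, 4.81 and 13.3%. A mean log2(FPKM+1) of at least 1, which stands for 1 FPKM, was held by all 76 in E55d, by 15 (19.7%) in B0d, 10 (13.2%) in W30d, 4 (5.26%) in A180d, 5 (6.58%) in A2Y and 8 (10.5%) in WB. The shares of all lncRNAs were 25.5, 13.3, 7.79, 16.4 and 8.36% in the same groups, which lie near those of the members except in A2Y.

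Summed over the set, the FPKM was 493, 656 and 698 at E55d, which was 2.79, 3.5 and 3.54% of the FPKM of all lncRNAs. Without TU69813, which is listed at 0 in library 1, the E55d sums were 493, 536 and 547. The sum was 75.4, 83.8 and 72.6 at B0d, and 78.4, 31.7 and 76.2 at W30d. It was 17.8, 18.8 and 21.5 at A180d, 20.7, 30.9 and 25.7 at A2Y, and 31.9, 30.7 and 39.9 in WB. The fetal libraries stood clear of all others, and within W30d the sum of replicate 2 was the lowest by a wide gap. That library also had the lowest erythroid sum of its group, and the lowest proliferation sum, 94.1 beside 259 and 299. Most of the gap to replicate 1 came from TU9999, at 37.8, 7.90 and 24.0 FPKM in the W30d libraries, and the sums without it were 40.6, 23.8 and 52.2. Replicate 2 held the lowest W30d value of 26 of the 76 members and replicate 1 that of 22, and replicate 2 held the highest of 15. The proliferation sum was 171 to 220 at E55d, 61.7 to 134 at B0d, 43.4 to 76.6 at A180d, 21.9 to 53.6 at A2Y and 8.52 to 17.5 in WB. The erythroid sum was 94.7 to 181 at B0d, at most 15.2 at A2Y and 11.4 to 12.7 in WB. Its genes differed in direction from A2Y to WB, and neither passed the test. The mean log2(FPKM+1) of EPOR went from 1.83 to 2.82 and that of TFRC from 3.44 to 2.74. The part of these cell types in the level of the lncRNAs was not tested.

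**Figure D3:**
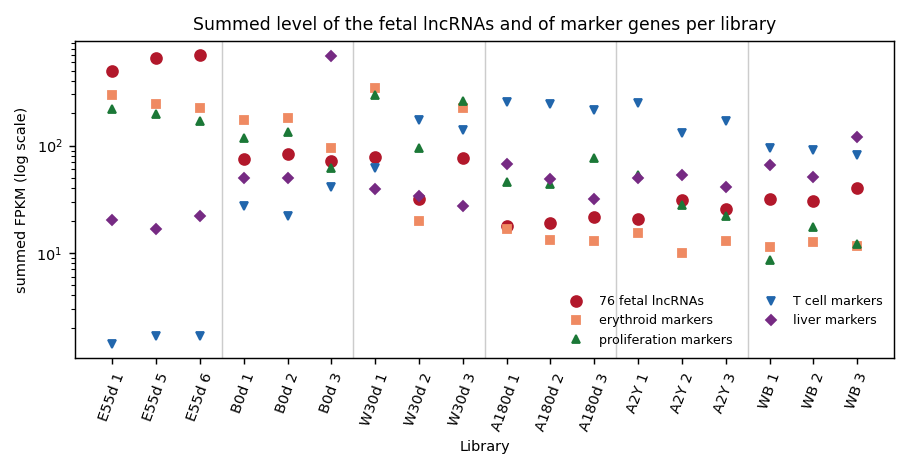
Summed FPKM, on a log axis, of the 76 lncRNAs and of the measured genes of 4 marker lists in each of the 18 libraries. The lncRNAs fall from 493 to 698 at E55d to 17.8 to 21.5 at A180d, T cell markers run the other way, and W30d replicate 2 is low in the lncRNAs, the erythroid and the proliferation markers.

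To see how these lncRNAs behaved after birth, the groups were compared with limma. This linear model shares its estimate of the spread across features, with Benjamini-Hochberg adjustment over 14129 lncRNAs. The rule did not use the differences between these groups, but it held the B0d, W30d, A180d and A2Y means of every member down. The members' shares beside those of all lncRNAs are therefore a description. Of the 76, 74 passed the filter on low values, FPKM above 0.1 in at least 3 of 18 libraries. TU69922 and TU69925 did not. Only 63 passed in libraries other than E55d, so 11 entered the tests through the group where they were chosen to be high, and the shares over 74 are given with that limit. Differences on the log2(FPKM+1) scale understate the change of lncRNAs near 0.

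From B0d to W30d, 6 of 74 (8.11%) passed the test as lower at an adjusted p of at most 0.05, beside 11.2% of all lncRNAs tested, and 0 as higher, beside 1.05%. At an unadjusted p below 0.05 there were 14, all lower. The median change was -0.17, beside -0.15 for all lncRNAs. TU76716 was at 1.05, 1.20 and 1.65 at B0d and at 0.18, 0.35 and 0.47 at W30d, a change of -0.96 ± 0.18 (SE, limma adjusted p = 0.00263). TU77042 fell by 0.90 ± 0.20 (limma adjusted p = 0.00833), TU78843 by 0.81 ± 0.24 (limma adjusted p = 0.0353), TU78516 by 0.78 ± 0.20 (limma adjusted p = 0.0176), TU76706 by 0.78 ± 0.18 (limma adjusted p = 0.0115) and TU12798 by 0.60 ± 0.12 (limma adjusted p = 0.00478). With only B0d and W30d in the model none of these passed, and TU78843 lost the call in 8 of 16 alternatives, 5 of them with a single library left out. With E55d left out of the model and the filter, 6 of 63 passed as lower and 1 as higher, beside 10.9 and 0.9% of 13673 lncRNAs.

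From W30d to A180d, 4 of 74 (5.41%) passed as lower, beside 11.4% of all lncRNAs, and 0 as higher, beside 0.998%. At an unadjusted p below 0.05 there were 10, of which 1 was higher. The 4 were TU9999 (-1.76 ± 0.43 SE, limma adjusted p = 0.0176), TU79903 (-1.21 ± 0.28 SE, limma adjusted p = 0.0143), TU67187 (-1.145 ± 0.30 SE, limma adjusted p = 0.0234) and TU66767 (-0.95 ± 0.26 SE, limma adjusted p = 0.0278). TU66767 was at 1.47, 0.17 and 1.52 at W30d and at 0.13, 0.10 and 0.08 at A180d, so that W30d replicate 2 lay close to the A180d level. With E55d left out of the model and the filter, 6 of 63 passed as lower, beside 9.89% of 13673 lncRNAs. The count was 2 without W30d replicate 1, 6 without W30d replicate 2, 0 without W30d replicate 3, and 0, 1 and 2 without A180d replicate 1, 2 and 3.

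Over the longer interval from B0d to A180d, 23 of 74 (31.1%) passed as lower and 0 as higher, where 43.6% of all lncRNAs were lower and 2.71% higher. At an unadjusted p below 0.05 there were 30, all lower. The median change was -0.33, beside -0.36 for all lncRNAs. With E55d left out of the model and the filter, 31 of 63 members (49.2%) passed as lower, beside 45.0% of 13673 lncRNAs, so the order of the members' share and the share of all lncRNAs depends on whether the fetal libraries enter. TU79903 fell by 2.02 ± 0.28 (SE, limma adjusted p = 4.49e-05), TU67187 by 1.70 ± 0.30 (limma adjusted p = 0.000276), TU9999 by 1.61 ± 0.43 (limma adjusted p = 0.00581), TU27620 by 1.49 ± 0.56 (limma adjusted p = 0.0353) and TU77042 by 1.35 ± 0.20 (limma adjusted p = 6.81e-05). In 22 of these 23 lncRNAs every B0d library lay above every A180d library, with TU27620 as the exception, and over the 76 this was so in 37 (48.7%), beside 47.5% of all lncRNAs. The count was 15 without B0d replicate 1, 15 without A180d replicate 2 and 12 without A180d replicate 3. Each of TU79903, TU67187, TU9999 and TU77042 passed in every alternative run. TU27620 lost the call in 9 of 16 alternatives, and its change was -0.75 without B0d replicate 3, the library with raised ALB, and -2.24 without B0d replicate 2.

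From B0d to A2Y, 13 of 74 (17.6%) passed as lower and 0 as higher, where 12.8% of all lncRNAs were lower and 5.23% higher. At an unadjusted p below 0.05 there were 25, all lower. The median change was -0.23, beside -0.09 for all lncRNAs. The largest falls were those of TU79903 (-2.25 ± 0.28 SE, limma adjusted p = 9.55e-05), TU9999 (-2.04 ± 0.43 SE, limma adjusted p = 0.00372), TU67187 (-1.70 ± 0.30 SE, limma adjusted p = 0.00107), TU83744 (-1.33 ± 0.34 SE, limma adjusted p = 0.0121) and TU77042 (-1.05 ± 0.20 SE, limma adjusted p = 0.00183). With E55d left out of the model and the filter, 18 of 63 passed as lower, beside 13.0% of 13673 lncRNAs, and with only B0d and A2Y in the model 4 did, so the count depends on the groups that enter. All 13 were among the 23 called from B0d to A180d, 2 comparisons that share the B0d libraries.

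From A180d to A2Y, 0 of 74 passed in limma at an adjusted p of at most 0.05, and 0 at an unadjusted p below 0.05, while 17.2% of all lncRNAs were higher at A2Y and 0.297% lower. The means of 49 members were higher at A2Y and those of 18 lower, with a median change of 0.04, beside 0.26 for all lncRNAs. The changes ran from -0.43 to 1.00. In absolute terms the levels were low in both groups, with a mean below 0.1 FPKM in 51 of 76 members at A180d and in 37 at A2Y.

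Over the postnatal domestic stages together, 24 of 74 members fell in at least 1 of the 5 comparisons, beside 46% of all lncRNAs tested, and 0 passed as higher in any, beside 22.1%. These pooled shares were taken only with E55d in the model and the filter. With E55d left out of both, 31 of 63 members (49.2%) were lower from B0d to A180d alone, beside 45.0% of 13673 lncRNAs. The order of the pooled shares is therefore not read as a trait of the members. With other settings a small number passed as higher from A180d to A2Y, 4 with a pseudocount of 0.1, 2 with only these groups in the model and 1 with E55d left out of it. The fetal protein-coding genes chosen by the same rule gave 39 lower and 2 higher of 82 from B0d to A180d, by the same test, where 20% of protein-coding genes were lower and 19.9% higher. The rule held the later domestic means of these genes down too, and they were tested only with E55d in the model. Their counts are a description and are not set against those of the lncRNAs.

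**Figure D4:**
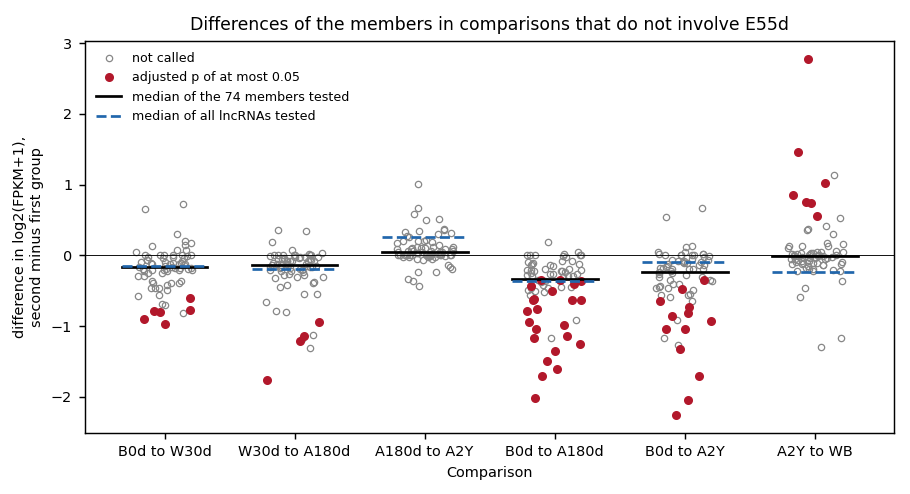
Difference in log2(FPKM+1), second minus first group, of the 74 tested members in 6 comparisons that leave out E55d. Filled points passed the test at an adjusted p of at most 0.05, open points did not, and lines give the median of the members (solid) and of all 14129 tested lncRNAs (dashed). Filled points lie below 0 in the 4 postnatal comparisons that have any, and above 0 from A2Y to WB.

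The Wild Boars, of the same age as A2Y, differed from them in part of the set, and here the calls lay on the higher side. From A2Y to WB, 7 of 74 (9.46%) passed as higher, beside 1.01% of all lncRNAs tested, and 0 as lower, beside 16.7%. At an unadjusted p below 0.05 there were 11, of which 10 were higher. The median change was -0.01, beside -0.24 for all lncRNAs, so the members' median lay near 0 while that of the lncRNAs at large lay below it. The rule held the A2Y mean of every member down and used WB only within the mean over all libraries. The median of the A2Y means was 0.14 in log2(FPKM+1) for the members, beside 0.49 for all lncRNAs. In 37 of 76 members the A2Y mean was below 0.1 FPKM. Such levels leave little room for a fall, so the lack of lower calls is not read as a trait of the members. With E55d left out of the model and the filter, chosen after seeing the data, 6 of 63 passed as higher and 1 as lower, beside 0.951 and 15% of 13673 lncRNAs. Every WB library lay above every A2Y library in 6 of 76, beside 2.03% of all lncRNAs, and below in 9 of 76, beside 38.6%.

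The largest difference was that of TU35137, which was at 3.77, 3.41 and 3.90 in log2(FPKM+1) at E55d, at 0 in all 12 postnatal domestic libraries, and at 2.53, 2.95 and 2.87 in WB. The 3 WB libraries lay below the fetal ones and above all postnatal domestic ones, at a mean FPKM of 49.1% of the E55d mean. From A2Y, where it is listed at 0, to WB it rose by 2.78 ± 0.15 (SE, limma adjusted p = 4.45e-09), and it passed in every alternative run. Its small SE draws on 12 libraries that are listed at 0.

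TU34155 was at 3.75, 3.47 and 3.85 at E55d, at 0.00, 0.07 and 0.00 at A2Y, and at 0.00, 2.11 and 2.35 in WB, so that 2 of 3 Wild Boars held it and the third did not (1.47 ± 0.37 SE, limma adjusted p = 0.0142). It no longer passed without WB replicate 2 or without WB replicate 3. TU46858 was at 3.45, 3.43 and 3.46 at E55d, at 1.14, 0.70 and 1.21 at B0d, at 0.08, 0.58 and 0.76 at A2Y, and at 1.92, 1.29 and 1.27 in WB, a difference of 1.02 ± 0.22 (SE, limma adjusted p = 0.00539). All 3 Wild Boars lay above all 12 postnatal domestic libraries, which was so in TU46858 and TU35137, or 2 of 76 members, beside 0.445% of all lncRNAs. The rule held the postnatal domestic means of the members down, which favours this count.

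TU77042, described above, was 0.76 ± 0.20 higher in WB than at A2Y (SE, limma adjusted p = 0.0166), with libraries that did not overlap, and the WB libraries overlapped with those of B0d. It lost the call without A2Y replicate 2 or without WB replicate 3. TU80849 was at 2.22, 2.14 and 2.2 at E55d, at 0.00, 0.00 and 1.39 at B0d, at 0 in the 9 libraries of W30d, A180d and A2Y, and at 0.41, 1.13 and 1.04 in WB (0.86 ± 0.26 SE, limma adjusted p = 0.033). It no longer passed without any single A2Y library, without WB replicate 2 or 3, or with the libraries rescaled. The remaining calls were named after their values were seen. TU35147 was at 0.00 in each A2Y library after rounding, at 0.58 in A180d replicate 2 and at 0.53, 0.54 and 0.60 in WB (0.56 ± 0.16 SE, limma adjusted p = 0.0231). TU50309 was at 0 in all A2Y libraries and at 0.75, 0.00 and 1.46 in WB (0.74 ± 0.23 SE, limma adjusted p = 0.0323). Outside E55d, TU50309 was detected only in WB replicates 1 and 3, so it entered the test through the fetal libraries it was chosen on. Its SE also draws on the postnatal domestic libraries, all listed at 0.

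The count of 7 was 3 without A2Y replicate 2, 4 without A2Y replicate 3 and 2 without WB replicate 3, and 4 when B0d replicate 3, W30d replicate 2 and WB replicate 3 were all left out. WB replicate 3 is the library with raised ALB. The summed FPKM of the B cell markers was 38.1 to 42.7 in WB and 115 to 168 at A2Y, and that of the T cell markers 82.5 to 96.0 and 132 to 248. All 3 measured B cell genes and 2 of 4 T cell genes fell from A2Y to WB by limma, where 9.57% of protein-coding genes were lower. The part of cell composition in the difference was not tested, and breed and living conditions cannot be told apart. The study also lists more sequence data for every A2Y library than for any WB library, and the part of depth was not tested.

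**Figure D5:**
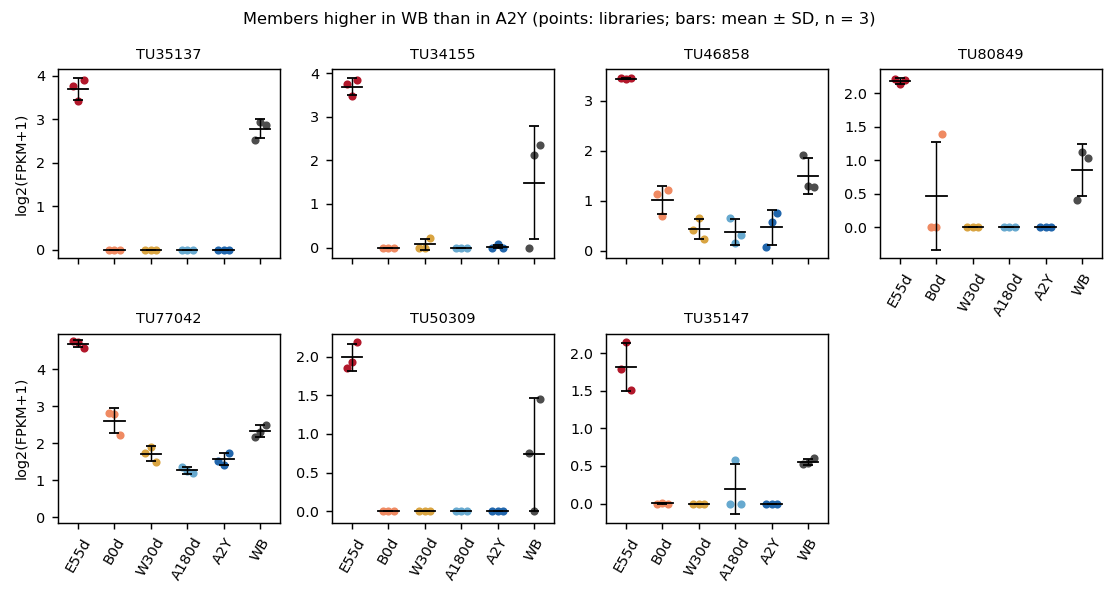
The 7 members that were higher in WB than at A2Y, with log2(FPKM+1) on each vertical axis and all 6 groups on the horizontal axis. Points are libraries and black bars are the mean ± SD (n = 3). TU35137 is at 0 in all 12 postnatal domestic libraries and at 2.53 to 2.95 in WB, while TU34155 and TU50309 are at 0 in WB replicate 1 and WB replicate 2, respectively. TU50309 entered the test through its E55d libraries.

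No member fell from A2Y to WB by the test. TU9999 came near it, with all 3 WB libraries below all 3 A2Y libraries and a difference of -1.17 ± 0.43 (SE, limma adjusted p = 0.0675). Relative to the fetal level, the WB mean FPKM had a median of 1.48% of the E55d mean over the 76, with quartiles of 0.375 and 6.97% and a highest value of 53.1%. Every E55d library lay above every WB library in 71 of 76, beside 47.2% of all lncRNAs, a count that the choice of high E55d values favours. The 5 exceptions were the lncRNAs with a fetal library at 0. The WB mean was above each of the 4 postnatal domestic means in 11 members, and this was so in 5.96% of all lncRNAs. The rule held those 4 domestic means down, which favours this count. The 82 fetal protein-coding genes gave 18 higher and 2 lower from A2Y to WB, where 10.8% of protein-coding genes were higher and 9.57% lower. The rule held the A2Y means of these genes down as well, and they were tested only with E55d in the model.

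Several members carried neighbouring TU numbers. Among the 76, 20 fell into 6 runs in which successive numbers differ by at most 2, the longest being TU19921, TU19923, TU19925, TU19926 and TU19927. Their E55d means ran from 1.82 to 2.00 and their B0d means from 0.14 to 0.28. The run TU28903, TU28905, TU28906 and TU28907 had E55d means of 1.82 to 1.98, and TU28904, which lies between them, had a mean of 1.25 and a margin of 1.09 and is no member. The lncRNAs TU76646, TU76647 and TU76648 formed the most abundant run, with E55d means of 3.73, 3.28 and 2.93.

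At W30d TU76646 was at 2.48, 0.37 and 2.34, TU76647 at 1.55, 0.00 and 1.32, and TU76648 at 1.19, 0.00 and 0.85, with replicate 2 the lowest each time. Whether members with neighbouring numbers share a locus or reads was not tested, and every count here takes each of them singly. Another tabled lncRNA lay at most 2 numbers away for 60 of the 76 members and for 79.4% of all lncRNAs, so having a neighbour is common in the table.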

How the data were processed

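Strand-specific paired-end libraries were sequenced on a HiSeq platform. According to the study's methods and the submitters' processing notes, the authors mapped reads with TopHat to Sscrofa10.2 with renewed sex chromosomes, assembled transcripts with StringTie 1.3.3, filtered lncRNAs with Cufflinks 2.2.1 tools and coding-potential tests, and deposited log2 values, log2(FPKM+1), for 15040 lncRNAs and 12913 protein-coding genes. Empty lncRNA cells (52256) were read as FPKM 0. A further scaling between libraries is not given in the sources used here. The members and lists were chosen with earlier results of these data known. Differences were tested in R 4.3.3 by limma 3.58.1 (18 libraries, 6 groups, trended eBayes, two-sided, Benjamini-Hochberg over all features tested, adjusted p of at most 0.05). The fit of the protein-coding genes was added after the files were seen. E55d against the other domestic stages was not tested, since it chose the members. Symbols were paired with 8215 protein-coding identifiers. Named lncRNAs were the 10 highest at E55d, the 10 with the largest margins, 5 on each side of the threshold, up to 5 called per direction and comparison, the 5 highest in WB, and consecutive numbers among these. Replicates are separate animals, and the reads behind an FPKM value are not known, while the study lists more data for A2Y than for the other groups. Tables and figures were made with pandas 2.3.3, matplotlib 3.10.9 and numpy 2.4.6 under Python 3.11.15. Alternatives were other filters, a pseudocount of 0.1, scaling by protein-coding genes, limma without trend, fewer groups, a replicate block, other thresholds and libraries left out.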

Additional observations from a re-analysis of the deposited data

How the results depend on the processing

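The number of members depended most on the scale. It was 697 with a pseudocount of 0.1 (75 of the 76 shared), 127 with libraries scaled by protein-coding genes (all 76 shared), 304 and 17 with thresholds of 1 and 2, 21 when every E55d library had to exceed every postnatal library by 1.5, and 68 to 93 with a library left out. Scaling moved the median change of all lncRNAs by -0.0451 to 0.00206 on the log2 scale, depending on the comparison. Counts of called members moved as follows, and the cause was not tested. With a pseudocount of 0.1 they were 9 from W30d to A180d, 4 from A180d to A2Y and 38 from B0d to A180d. With a model of the 2 groups alone they were 0 from B0d to W30d, 2 from A180d to A2Y and 4 from B0d to A2Y. With E55d left out of the model, added after seeing the data, they were 1 from A180d to A2Y, 32 from B0d to A180d and 20 from B0d to A2Y, and with E55d also out of the filter they were 1, 31 and 18. With B0d replicate 3, W30d replicate 2 and WB replicate 3 left out together, also added after seeing the data, they were 8 from W30d to A180d and 4 from A2Y to WB. Leaving out each library in turn gave 4 to 8 from B0d to W30d, 0 to 6 from W30d to A180d (0 without W30d replicate 3 or A180d replicate 1), 0 from A180d to A2Y, 12 to 22 from B0d to A180d (12 without A180d replicate 3), 9 to 14 from B0d to A2Y and 2 to 6 from A2Y to WB (2 without WB replicate 3).

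Replicate numbers name different animals, and of 30 correlations of same-numbered deviations 2 were above 0.1 (range -0.222 to 0.144), so they do not pair the samples. A replicate block with E55d left out gave 6, 4, 1, 31, 18 and 8 members called from B0d to W30d, W30d to A180d, A180d to A2Y, B0d to A180d, B0d to A2Y and A2Y to WB. Of 24 named calls, 8 passed under all 16 alternatives each, 66 of 384 refits lost a call and 0 reversed. Without read counts, no count model was run.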
